A study of Rattus norvegicus with 70 samples.

Results

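Matrix metalloproteinases (MMP), the related ADAMTS proteases, the ADAMTS-like glycoproteins (ADAMTSL) and the tissue inhibitors of metalloproteinases (TIMP) were followed in 6 tissues of rats that breathed ozone or air. They were taken by gene symbol, as every symbol that began with Mmp, Adamts, Adamtsl or Timp and a number. This gave 44 genes of the 19441 in the tables, namely 19 ADAMTS, 5 ADAMTSL, 16 MMP and 4 TIMP genes. Male Wistar-Kyoto (WKY) rats gave the messenger RNA, from muscle, fat, liver, lung, adrenal gland and hypothalamus. The animals were exposed to 0.8 ppm ozone or to air for 4 h. WKY is an inbred strain, and the rats carried no other treatment or transgene per the labels, which give no age. The libraries numbered 6 ozone and 6 air in lung, liver and hypothalamus, 6 ozone and 5 air in adrenal gland, 5 ozone and 5 air in adipose tissue, and 5 ozone and 6 air in muscle.

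Metalloproteinases of these families are zinc enzymes that cut the extracellular matrix and many secreted and cell-surface proteins. Most are made as inactive precursors that furin-like convertases, plasmin or other metalloproteinases activate, and TIMPs block the active enzymes. MMPs include gelatinases, collagenases, stromelysins and membrane-bound forms. ADAMTS enzymes include those that cut the large proteoglycans aggrecan and versican, those that trim procollagen, and the protease of von Willebrand factor, while ADAMTSL proteins have no protease domain and bind fibrillin microfibrils. In injured lung, neutrophils and macrophages bring MMPs of their own, and many of these genes respond to cytokines, to activator protein 1 (AP-1) and to glucocorticoids.

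The values are gene counts that the authors divided by a size factor for each library, here called normalised values, and each tissue has its own table. A gene was tested in a tissue if its mean normalised value there, over ozone and air libraries together, was at least 10. A gene under 10 in 1 group could pass through the other group, as Adamts4 did in lung and Mmp27 and Mmp28 in muscle. The test was limma on log2(value + 1), and a gene is said to have risen or fallen in ozone where the Benjamini-Hochberg adjusted p over all genes of that tissue was under 0.05. Fold changes are log2 values on that scale, ozone over air, with their standard error, averages are means ± SD over the libraries of a group, and fold changes understate the change of low genes. The libraries held between 8854272 and 18848151 reads. Nothing in the labels says how the rats or libraries were batched, and ozone and air libraries carry separate runs of numbers, so an effect of handling order and of ozone cannot be told apart. Each p-value weighs a difference against the spread between libraries.

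The defining markers of each tissue were present in their own libraries. In bulk tissue, fewer cells of a type and less RNA per cell cannot be told apart, which touches every result here. In muscle, 7 of 9 tested fibroblast markers fell, where 22.1% of all muscle genes fell. The summed fibroblast markers ran from 19424 to 78081 in ozone libraries, against 73324 to 243114 in air libraries. In liver, air 1 and ozone 19 held summed lung-marker values of 4353 and 2455, against at most 1153 in any other liver library. In adrenal gland, summed lung markers were 869, 1411 and 2410 in ozone 17, 19 and 20 and 518 in air 8, against at most 261 in the other libraries. Adrenal air 8 also had the lowest summed adrenal markers, 88591, against 136139 or more elsewhere, and a fibroblast sum of 14321, against 6834 to 9771 in the other air libraries. Without these 4 adrenal libraries, a comparison chosen after seeing the data, 3 family genes rose and 3 fell, where 9.95% of all genes changed. In hypothalamus, ozone 15, 16 and 18 held summed smooth muscle markers of 2202 to 2332, against 6101 or more in the other libraries of that tissue. Summed liver markers reached 21487 in adrenal air and 7719 in adrenal ozone libraries. In lung they reached 16262 in air and 2579 in ozone libraries, and in hypothalamus 12816 and 19153. Summed adipose markers in lung reached 7678 in air and 1658 in ozone libraries. Summed muscle markers in adipose tissue reached 55438 in air and 7505 in ozone libraries. The part of these in the results was not tested.

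Of the 44 genes, 41 passed the minimum in at least 1 tissue and 20 passed in all 6, which gave 187 pairs of gene and tissue. Ozone went with 22 rises and 26 falls among these pairs, and 25 of the 41 genes changed in at least 1 tissue. The matching share of all genes was not worked out, and in muscle alone 43.7% of all tested genes changed. Adamts18, Mmp7 and Mmp10 were under the minimum everywhere. The 16 genes that were tested and passed in no tissue were Adamts3, Adamts6, Adamts13, Adamts14, Adamts16, Adamts19, Adamts20, Adamtsl1, Mmp3, Mmp8, Mmp12, Mmp17, Mmp23, Mmp24, Timp2 and Timp4. Genes near the minimum included Adamts6 in liver, tested at a mean of 10.2, and Adamts14 in liver, left out at 9.98.

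Lung, adrenal gland and muscle held most of the changes. In lung, 8 of 36 tested genes rose and 5 fell (22.2% and 13.9%), where 9.51% of all tested lung genes rose and 8.18% fell, 17.7% together. In adrenal gland, 7 of 30 rose and 3 fell, where 9.23% of all genes rose and 9.38% fell, 18.6% together. In muscle, 2 of 31 rose and 14 fell, where 21.6% of all genes rose and 22.1% fell, 43.7% together. In liver, 2 of 24 rose and 2 fell, where 6.74% of all genes rose and 4.72% fell, 11.5% together. In adipose tissue, 3 of 33 rose and 1 fell, where 3.87% of all genes rose and 3.45% fell, 7.32% together. In hypothalamus, 0 of 33 rose and 1 fell by limma and by edgeR and DESeq2, where 0.789% of all genes rose and 0.624% fell, 1.41% together, and at an unadjusted p under 0.05 the counts were 0 and 8, where 7.87% of all hypothalamus genes were higher and 6.89% lower at that level. The median fold change of the tested family genes was -0.69 in muscle, -0.25 in hypothalamus, -0.08 in liver, 0.04 in adipose tissue, 0.08 in lung and 0.26 in adrenal gland, while the median of all genes lay within 0.02 of 0 in every tissue.

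**Figure D1:**
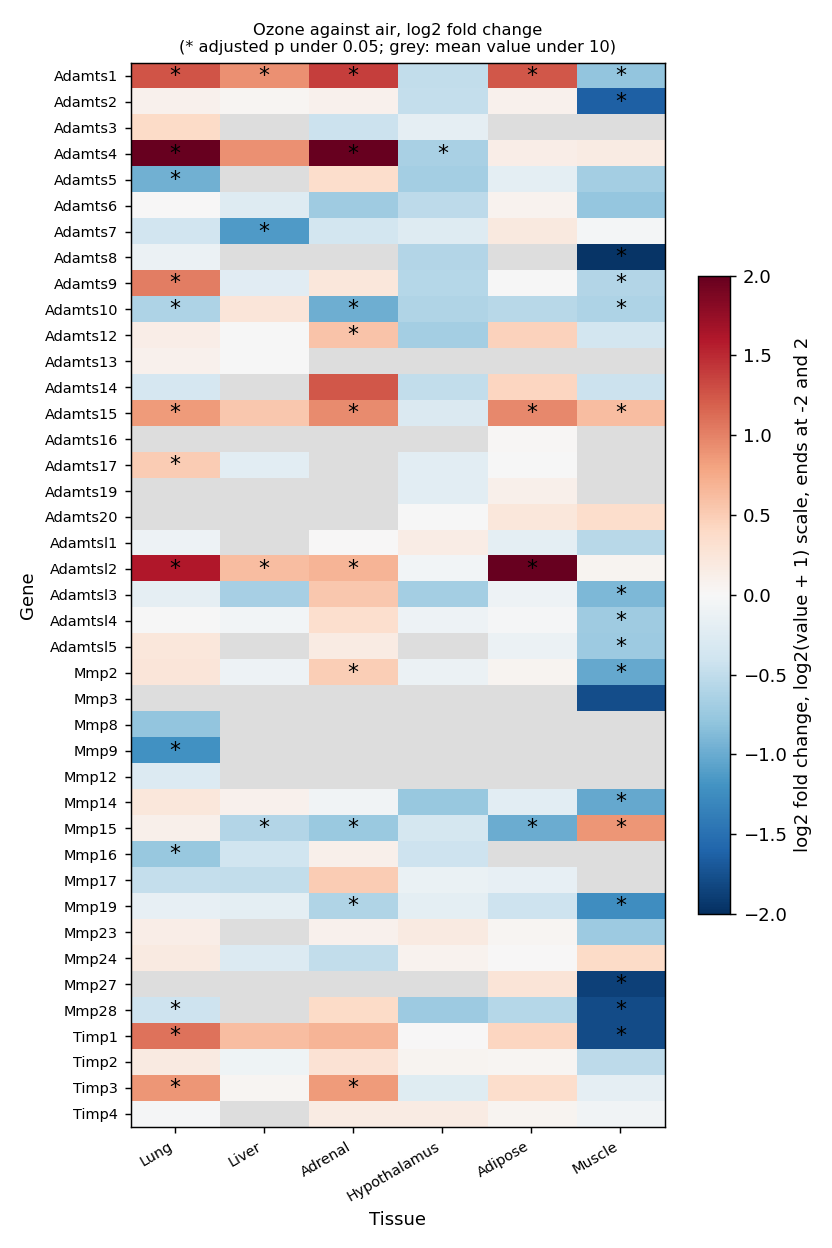
Log2 fold change of each family gene (rows) in each tissue (columns), ozone over air on the log2(value + 1) scale, with colours ending at -2 and 2, stars where the adjusted p was under 0.05 and grey where the mean value was under 10. Adamts1, Adamtsl2 and Adamts15 are red in several tissues, and the muscle column is mostly blue with 14 starred falls and 2 starred rises.

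Among the proteoglycan-cutting ADAMTS enzymes, Adamts1 was changed in the most tissues. Adamts1 cuts versican and aggrecan and is induced early in ovulation and inflammation. It rose in lung, liver, adrenal gland and adipose tissue and fell in muscle.

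In lung, Adamts1 had normalised values of 1359, 1797 and 2106 (lowest, median and highest) in ozone libraries, against 606, 721 and 864 in air libraries, a fold change of 1.25 ± 0.11 (adjusted p 5.76e-06). In adrenal gland the values were 425, 494 and 528 (lowest, median and highest) in ozone libraries, against 163, 235, 158, 211 and 179 in the 5 air libraries (1.38 ± 0.13, adjusted p 2.5e-05). In adipose tissue Adamts1 stood at 1485, 1258, 3126, 1833 and 2464 in the 5 ozone libraries, against 695, 705, 1142, 737 and 881 in the 5 air libraries (1.23 ± 0.24, adjusted p 0.00937). In all of these tissues every ozone library was above every air library. Liver ozone libraries had 181, 311 and 486 (lowest, median and highest), against 116, 150.2 and 278 in air libraries, and the groups overlapped (0.91 ± 0.25, adjusted p 0.0278). The liver call was lost without air 1 and ozone 19, the libraries with lung markers, where the fold change was 0.83 and the adjusted p 0.0779, and it held in 6 of 12 fits that left out a library. Muscle went the other way, with 303, 376, 183, 303 and 279 in the 5 ozone libraries, all below the 391, 486 and 568 (lowest, median and highest) of the air libraries (-0.79 ± 0.17, adjusted p 0.00211). Hypothalamus ozone libraries had 59.6, 99.5 and 142, against 101, 123 and 226 in air libraries, and the groups overlapped (-0.48 ± 0.27, adjusted p 0.425).

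Adamts4, an aggrecanase of cartilage and brain, had the largest fold changes of the family. In lung it had values of 49.4, 105 and 254 (lowest, median and highest) in ozone libraries, against 2.77, 10.7 and 12.2 in air libraries, a fold change of 3.40 ± 0.40 (adjusted p 5.23e-05). In adrenal gland it had 78.3, 161 and 427 in ozone libraries, against 23.4, 12.4, 10.8, 4.31 and 17.6 in the 5 air libraries (3.66 ± 0.46, adjusted p 0.000196). In both tissues all ozone libraries lay above all air libraries, although the ozone libraries themselves differed several-fold. The mean of the lung air libraries was 9.54, under the minimum, so Adamts4 was tested in lung through its ozone libraries. In hypothalamus, where Adamts4 was most abundant in air libraries, it fell, with 205, 249.9 and 272 (lowest, median and highest) in ozone libraries, against 304, 388 and 479.8 in air libraries and no overlap (-0.65 ± 0.12, adjusted p 0.0133). Without ozone 15, 16 and 18 the hypothalamic fold change was -0.60 and its adjusted p 0.0942.

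Oligodendrocytes make Adamts4 in brain, and a list of 10 oligodendrocyte genes, chosen after the values were seen, was read beside that fall. Of these, Olig1 rose in hypothalamus and no other passed, and their summed value ran from 144127 to 245594 in ozone libraries, against 151328 to 210489 in air libraries.

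In the remaining tissues Adamts4 did not pass. Liver had 11.5, 18.1 and 27.4 (lowest, median and highest) in ozone libraries, against 5.26, 8.35 and 17.5 in air libraries (0.91 ± 0.33, adjusted p 0.0985). Adipose tissue had 269.5, 263, 235, 357 and 317 in ozone libraries, against 219.5, 310.0, 229, 270.3 and 279.5 in air libraries (0.13 ± 0.15, adjusted p 0.664). Muscle had 73.7, 45.5, 24.8, 38.6 and 18.2 in ozone libraries, against 18.9, 29.8 and 58.5 (lowest, median and highest) in air libraries (0.16 ± 0.37, adjusted p 0.749). The groups overlapped in these 3 tissues.

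Adamts15, a versican-cutting enzyme of muscle and skin development, rose in lung, adrenal gland, adipose tissue and muscle. Lung values were 1751, 1882 and 2424 (lowest, median and highest) in ozone libraries, all above the 989, 1058 and 1279.8 of air libraries (0.86 ± 0.10, adjusted p 3.59e-05). Adipose ozone libraries had 2331, 2658, 1097, 2928 and 1949.8, against 821, 1066, 1031, 1084 and 1388 in air libraries (0.97 ± 0.24, adjusted p 0.0315). In adipose tissue ozone 21 lay inside the air range, and the call held in 2 of the 10 fits that left out a library. Ozone 22, with the highest Adamts15 value, had summed smooth muscle markers of 42916, against at most 23915 in any other adipose library, and without it and air 2 the fold change was 0.75 (adjusted p 0.0881). Adrenal ozone libraries had 29.9, 50.9 and 76.6 (lowest, median and highest), against 16.9, 27, 31.1, 19.8 and 38.7 in air libraries (0.95 ± 0.29, adjusted p 0.0372), and this call held in 4 of 11 fits that left out a library. The highest adrenal values were those of ozone 17, 19 and 20, the libraries with the most lung markers, and without these and air 8 the fold change was 0.60 (adjusted p 0.282). Muscle ozone libraries had 374, 201, 301, 268 and 204, against 131, 184 and 203 (lowest, median and highest) in air libraries (0.62 ± 0.18, adjusted p 0.0149). The groups overlapped in adrenal gland and, by single libraries, in muscle.

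In liver, Adamts15 stood apart in the libraries that also held lung markers. Ozone libraries had 20.2, 24.5 and 79 (lowest, median and highest), against 11.2, 16.2 and 63.1 in air libraries (0.54 ± 0.43, adjusted p 0.521). The highest values were those of ozone 19 and air 1. Hypothalamus had 59.8, 126 and 383 in ozone libraries, against 122, 168 and 214 in air libraries, with overlap (-0.29 ± 0.41, adjusted p 0.789).

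The other proteoglycan-cutting members changed in fewer tissues. Adamts9, which cuts versican, rose in lung, with 2136, 2336 and 3555 (lowest, median and highest) in ozone libraries, against 942, 1146 and 1934 in air libraries and no overlap (1.03 ± 0.18, adjusted p 0.00103). In muscle Adamts9 averaged 164 ± 31 in ozone libraries and 253 ± 88.9 in air libraries (SD, n = 5 and 6), just past the threshold at an adjusted p of 0.0496, and it held in 1 of 11 fits that left out a library. Its adjusted p was 0.563 in adrenal gland, 0.681 in liver, 0.974 in adipose tissue and 0.199 in hypothalamus.

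Adamts5, the main aggrecanase of mouse cartilage, fell in lung. It had 22.1, 29.5 and 38.3 (lowest, median and highest) in ozone libraries, all below the 45.7, 59.1 and 76.3 of air libraries (-0.95 ± 0.18, adjusted p 0.00192). Adamts5 and Adamts1 are neighbours on the chromosome, and in lung they moved in opposite directions. Adamts8, an enzyme described as anti-angiogenic, fell in muscle, where it averaged 20.4 ± 7.81 in ozone libraries and 92.2 ± 44.7 in air libraries (-1.97 ± 0.46, adjusted p 0.00468). Its neighbour Adamts15 rose there. Air 4 held the highest and air 3 the lowest Adamts8 value of the air group, and air 3 lay inside the ozone range.

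**Figure D2:**
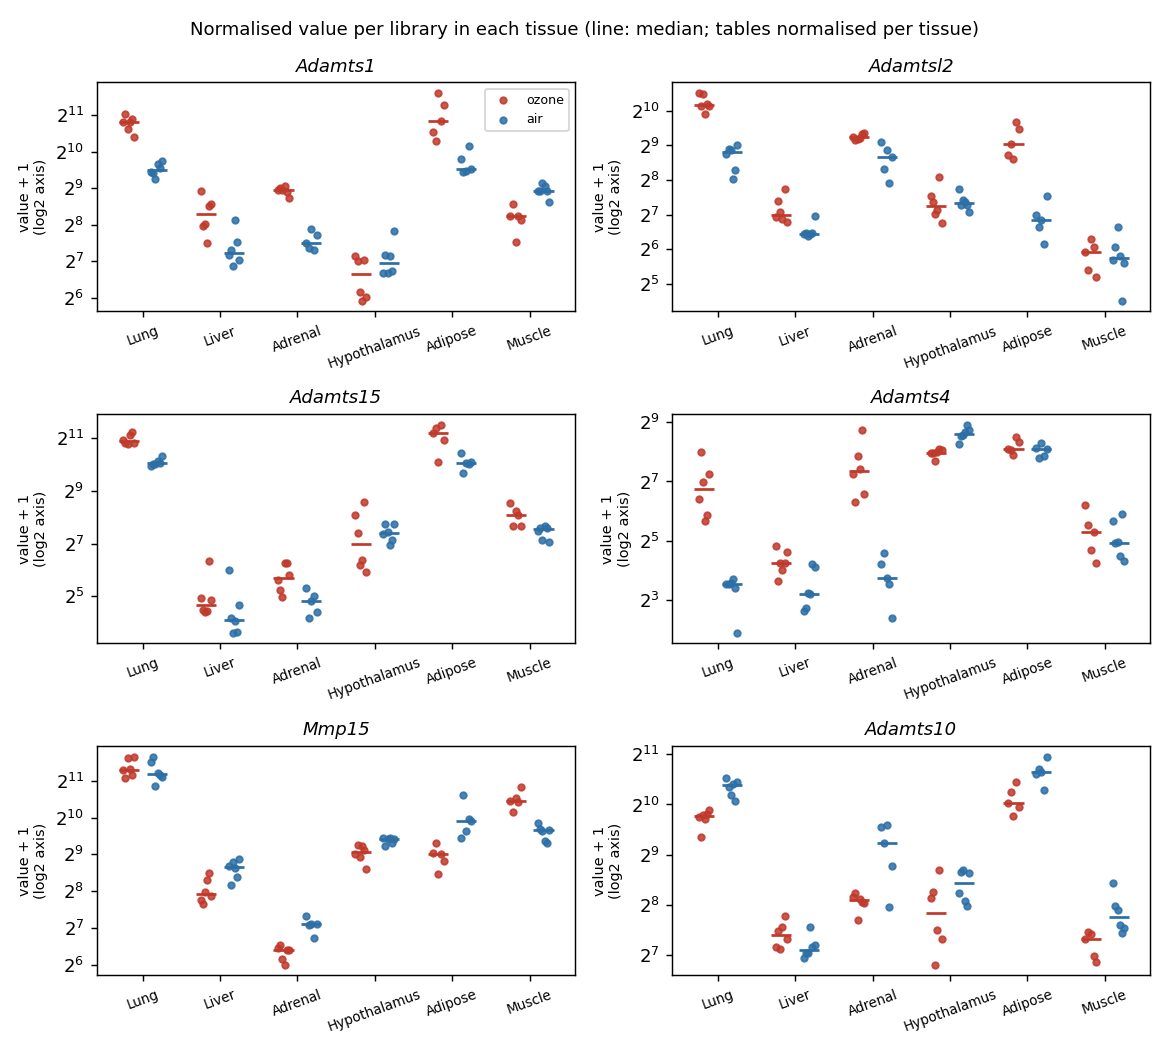
Normalised value + 1 per library on a log2 axis for the 6 genes that changed in at least 3 tissues, ozone (red) left of air (blue) in each tissue, with a line at the group median. Adamts1 and Adamts4 ozone libraries lie above all air libraries in lung and adrenal gland, and Mmp15 lies above air in muscle but below air in adrenal gland and adipose tissue.

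Adamtsl2, a fibrillin-binding glycoprotein that restrains transforming growth factor β in matrix and whose loss causes geleophysic dysplasia in humans, rose in lung, liver, adrenal gland and adipose tissue. Adipose ozone libraries had 422, 529, 386, 812 and 706, against 98.5, 113, 70.0, 185 and 126 in air libraries (2.27 ± 0.27, adjusted p 0.000624). Lung ozone libraries had 965, 1155 and 1474 (lowest, median and highest), against 259, 451 and 512 in air libraries (1.60 ± 0.17, adjusted p 1.95e-05). Adrenal ozone libraries had 571, 601 and 659, against 320.1, 468, 240.4, 404 and 545 in the 5 air libraries (0.68 ± 0.18, adjusted p 0.02), and without air 8 and ozone 17, 19 and 20 the fold change was 0.46 (adjusted p 0.154). Every ozone library exceeded every air library in these tissues.

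In liver Adamtsl2 also rose, with 110.1, 127 and 213 (lowest, median and highest) in ozone libraries, against 81.4, 86.2 and 124 in air libraries (0.62 ± 0.18, adjusted p 0.037). Only air 9 overlapped the ozone range. Without air 1 and ozone 19 the fold change was 0.48 and the adjusted p 0.0776, and the rise held in 5 of 12 fits that left out a library. Hypothalamus had 106, 151 and 269 in ozone libraries, against 134, 159 and 213 in air libraries (-0.06 ± 0.20, adjusted p 0.92). Muscle had 59.2, 41.5, 76.7, 66.2 and 35.3 in ozone libraries, against 21.7, 52.8 and 98.9 (lowest, median and highest) in air libraries (0.05 ± 0.32, adjusted p 0.908). Both pairs of groups overlapped widely.

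Of the other ADAMTSL genes, Adamtsl3, Adamtsl4 and Adamtsl5 fell in muscle and passed in no other tissue. Adamtsl3, which is linked to human height variation, had 60.3, 62.7, 57.3, 60.7 and 55.6 in the 5 ozone libraries, a narrow range below the 95.3, 106 and 152 (lowest, median and highest) of air libraries (-0.90 ± 0.15, adjusted p 0.000619). Adamtsl4, a fibrillin-associated protein of the eye's zonule, averaged 1411 ± 525 in ozone libraries and 2283 ± 712 in air libraries (adjusted p 0.0259), a fall that held in 7 of 11 fits that left out a library. Adamtsl5 averaged 108 ± 31.3 in ozone libraries and 176 ± 38 in air libraries (adjusted p 0.0138). Saxo2 overlaps Adamtsl3 on the other strand and was near 0 in muscle, with a mean value of 0.520.

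Adamts10, a microfibril-associated enzyme mutated in human Weill-Marchesani syndrome, fell in lung, adrenal gland and muscle. Lung ozone libraries had 653, 869.6 and 951 (lowest, median and highest), all below the 1076, 1337 and 1474 of air libraries (-0.62 ± 0.10, adjusted p 0.000941). Adrenal ozone libraries had 208, 272 and 303, against 604, 774, 249, 436 and 749 in air libraries (-0.97 ± 0.26, adjusted p 0.0192). Muscle ozone libraries had 159, 176, 169.6, 126 and 115, against 173, 217 and 347 (lowest, median and highest) in air libraries (-0.61 ± 0.19, adjusted p 0.0178). In adrenal gland air 8 lay among the ozone libraries, and in muscle the groups overlapped at air 7 and ozone 15. The fall held in 8 of 11 fits that left out a library in adrenal gland and in 10 of 11 in muscle.

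Elsewhere Adamts10 did not pass. Adipose ozone libraries had 1049, 1207, 873, 1393 and 984, against 1663, 1591, 1249, 1981 and 1551 in air libraries (-0.55 ± 0.16, adjusted p 0.0542). Liver had 139, 168 and 219 (lowest, median and highest) in ozone libraries, against 122, 137 and 188 in air libraries (0.24 ± 0.15, adjusted p 0.365). Hypothalamus had 111, 229.6 and 416 in ozone libraries, against 252, 347 and 412 in air libraries (-0.59 ± 0.28, adjusted p 0.342). The adipose value lay close to the threshold and the groups overlapped in each of these tissues.

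Further ADAMTS genes changed in a single tissue each. Adamts7, which cuts cartilage oligomeric matrix protein (Comp), had the lowest adjusted p of the family in liver, with 228, 271 and 349 (lowest, median and highest) in ozone libraries, all below the 365, 633 and 810.4 of air libraries (-1.14 ± 0.17, adjusted p 0.000501). It was the only liver call that held in all 12 fits that left out a library. Adamts12, a relative that also cuts Comp, averaged 152 ± 16.6 in adrenal ozone libraries and 103 ± 18.3 in air libraries, with no overlap (0.57 ± 0.15, adjusted p 0.0192). Without air 8 and ozone 17, 19 and 20 its fold change was 0.67 (adjusted p 0.0779).

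Adamts17 averaged 337 ± 53.3 in lung ozone libraries and 237 ± 35.9 in air libraries (0.51 ± 0.13, adjusted p 0.014). This enzyme, like Adamts10, is tied to fibrillin and to Weill-Marchesani syndrome in humans, and in lung Adamts17 rose while Adamts10 fell. Adamts2, the procollagen N-proteinase, fell in muscle, with 514, 639, 252, 243 and 258 in ozone libraries, all below the 795, 1009 and 2001 (lowest, median and highest) of air libraries (-1.63 ± 0.30, adjusted p 0.000977).

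Among the membrane-bound MMPs, Mmp15 had opposite changes between tissues. Mmp15 is a membrane-type enzyme of epithelium and endothelium that can activate pro-Mmp2. Muscle ozone libraries had 1388, 1145, 1489, 1375 and 1807, all above the 637, 807 and 923 (lowest, median and highest) of air libraries (0.89 ± 0.14, adjusted p 0.000305). Adipose ozone libraries had 527, 634, 352, 511 and 448, all below the 1569, 792, 996, 955 and 698 of air libraries (-0.99 ± 0.22, adjusted p 0.0177). Adrenal ozone libraries had 63.3, 84 and 91.9 (lowest, median and highest), all below the 135, 136, 105, 136 and 159 of air libraries (-0.74 ± 0.15, adjusted p 0.00469). The gene thus rose in muscle without overlap and fell in adipose tissue and adrenal gland without overlap.

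In liver Mmp15 also fell, with 199.9, 243 and 360.1 (lowest, median and highest) in ozone libraries, against 287, 406 and 469.6 in air libraries and some overlap (-0.58 ± 0.17, adjusted p 0.0359), which held in 5 of 12 fits that left out a library. In hypothalamus it had 385, 536 and 616 in ozone libraries, against 594, 681 and 701 in air libraries (-0.35 ± 0.11, adjusted p 0.169). Lung, its most abundant tissue in air, had 2149.6, 2528 and 3210.1 in ozone libraries, against 1871, 2323 and 3229 in air libraries (0.10 ± 0.14, adjusted p 0.689). The groups overlapped in both tissues.

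Mmp14, the main membrane activator of pro-Mmp2, averaged 274 ± 145 in muscle ozone libraries and 538 ± 229 in air libraries (-1.03 ± 0.34, adjusted p 0.0281). The fall held in 6 of 11 fits that left out a library. Its adjusted p was 0.143 in lung, 0.808 in liver, 0.808 in adrenal gland, 0.373 in hypothalamus and 0.54 in adipose tissue. Mmp16, another membrane-type enzyme, averaged 172 ± 51.9 in lung ozone libraries and 289.8 ± 68.1 in air libraries, and fell (-0.76 ± 0.19, adjusted p 0.0144).

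The gelatinases Mmp2 and Mmp9, which cut denatured and basement-membrane collagen, were followed next. Mmp9, a gelatinase stored in neutrophil granules, passed the minimum in lung alone, where it fell, with 11.9, 15.8 and 21.5 (lowest, median and highest) in ozone libraries, all below the 25.5, 39.7 and 43.7 of air libraries (-1.21 ± 0.19, adjusted p 0.000604). Mmp8, the neutrophil collagenase, averaged 25.8 ± 9.92 in lung ozone libraries and 45.3 ± 17.6 in air libraries, which missed the threshold (-0.79 ± 0.27, adjusted p 0.0537). Of 8 tested neutrophil markers in lung, 2 rose and 4 fell, where 9.51% of all lung genes rose and 8.18% fell. Csf3r averaged 187 ± 34.2 in ozone libraries and 353 ± 62.3 in air libraries. Il1r2 averaged 61.5 ± 10.3 in ozone libraries and 16.9 ± 5.19 in air libraries. The summed neutrophil markers, most of them Lcn2, ran from 4611 to 6456 in ozone libraries, against 3243 to 4360 in air libraries, and their part in the Mmp9 result was not tested. Mmp12, the macrophage elastase, averaged 19.7 ± 4.71 in lung ozone libraries and 28.3 ± 19.3 in air libraries and did not pass (adjusted p 0.666).

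Mmp2 is a product of fibroblasts and other stromal cells. In adrenal gland it had 289.7, 317 and 367 (lowest, median and highest) in ozone libraries, all above the 228, 225, 202, 228 and 267 of the 5 air libraries (0.49 ± 0.12, adjusted p 0.0111), and without air 8 and ozone 17, 19 and 20 the fold change was 0.42 (adjusted p 0.116). In muscle it had 1278, 1244, 660.1, 503 and 659 in ozone libraries, against 1086, 1570.3 and 2532 (lowest, median and highest) in air libraries (-1.03 ± 0.26, adjusted p 0.00745). Mmp2 thus rose in adrenal gland and fell in muscle, where ozone 13 and 15 overlapped the air range. In lung it averaged 3255 ± 207 in ozone libraries and 2775 ± 332 in air libraries (adjusted p 0.0767). Its adjusted p was 0.894 in liver, 0.842 in hypothalamus and 0.888 in adipose tissue.

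Among the remaining MMPs, Mmp19, an enzyme of basement membrane and skin, fell in adrenal gland and muscle. Adrenal ozone libraries had 336, 363 and 367 (lowest, median and highest), all below the 600.0, 437, 508, 562 and 629 of air libraries (-0.61 ± 0.11, adjusted p 0.00278). Muscle ozone libraries had 32.4, 42.5, 25.9, 24.3 and 25.7, all below the 44.9, 70.9 and 114 (lowest, median and highest) of air libraries (-1.25 ± 0.24, adjusted p 0.00131). Mmp28, known as epilysin for its place in epithelium, averaged 4.5 ± 2.5 in muscle ozone libraries and 17.8 ± 7.73 in air libraries (-1.79 ± 0.45, adjusted p 0.00582). It passed the minimum in muscle through its air libraries alone. In lung Mmp28 averaged 102 ± 14.3 in ozone libraries and 136 ± 17.9 in air libraries (-0.41 ± 0.13, adjusted p 0.0349), and this fall held in 4 of 12 fits that left out a library. Mmp27, outside the naming rule and named after its values were seen, averaged 8.11 ± 9.18 in muscle ozone libraries and 19.2 ± 7.2 in air libraries (limma adjusted p 0.0383, edgeR 0.123 and DESeq2 0.0994), and passed in 3 of 11 fits that left out a library.

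Of the inhibitors, Timp1 and Timp3 rose in lung. Timp1, an inducible secreted inhibitor, had 186, 389.6 and 516 (lowest, median and highest) in lung ozone libraries, against 102, 169 and 252 in air libraries (1.08 ± 0.25, adjusted p 0.00772). Timp3, which binds matrix and also blocks ADAMTS and ADAM enzymes, had 9437, 11155 and 12659 in lung ozone libraries, against 3832, 6055 and 10814 in air libraries (0.88 ± 0.19, adjusted p 0.00547). The overlap rested on ozone 16 for Timp1 and on air 9 for Timp3.

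In adrenal gland Timp3 had 4033, 4992 and 9243 (lowest, median and highest) in ozone libraries, against 2712, 2864, 5188, 2646 and 2173 in air libraries (0.85 ± 0.24, adjusted p 0.0284). The rise held in 5 of 11 fits that left out a library, and air 8, with the high fibroblast sum, lay among the ozone libraries. Ozone 16, highest for Timp3, had the highest fibroblast sum, 15379, and without air 8 and ozone 17, 19 and 20 the fold change was 1.09 (adjusted p 0.0345). In muscle Timp1 had 34.6, 40.5, 10.8, 13.2 and 11.8 in ozone libraries, against 21.5, 75.1 and 143 (lowest, median and highest) in air libraries, and fell (-1.78 ± 0.46, adjusted p 0.00767). Ozone 16, 23 and 24, the libraries with the fewest fibroblast reads, were also the lowest for Timp1.

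Elsewhere these inhibitors did not pass. Timp1 had an adjusted p of 0.145 in adrenal gland, 0.188 in liver, 0.585 in adipose tissue and 0.991 in hypothalamus. Timp3 had an adjusted p of 0.159 in adipose tissue, 0.404 in muscle, 0.733 in hypothalamus and 0.97 in liver.

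Timp2, a broad inhibitor that also helps Mmp14 activate pro-Mmp2, passed in none of the 6 tissues. Its fold changes were 0.19 ± 0.10 in lung, -0.09 ± 0.23 in liver, 0.29 ± 0.14 in adrenal gland, 0.06 ± 0.09 in hypothalamus, 0.03 ± 0.29 in adipose tissue and -0.52 ± 0.23 in muscle, with a lowest adjusted p of 0.075, in muscle. Timp4, an inhibitor of adipose tissue, heart and brain, was tested in 5 tissues and had fold changes of -0.03 ± 0.31 in lung, 0.16 ± 0.19 in adrenal gland, 0.17 ± 0.11 in hypothalamus, 0.06 ± 0.13 in adipose tissue and -0.07 ± 0.24 in muscle, with a lowest adjusted p of 0.502, in hypothalamus. Timp1, Timp3 and Timp4 each overlap a synapsin gene (Syn1, Syn3 and Syn2) in the annotation used for names. Because the strand setting of the counting is not given in the sources used here, shared reads cannot be told apart. In lung Syn1 had a mean value of 12.0 and Syn3 a mean value of 4.57, far under the TIMP values there, while in hypothalamus Syn1 had a mean value of 2906, against a Timp1 mean of 80.9 ± 45.6 in ozone libraries and 74.2 ± 20.9 in air libraries.

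**Figure D3:**
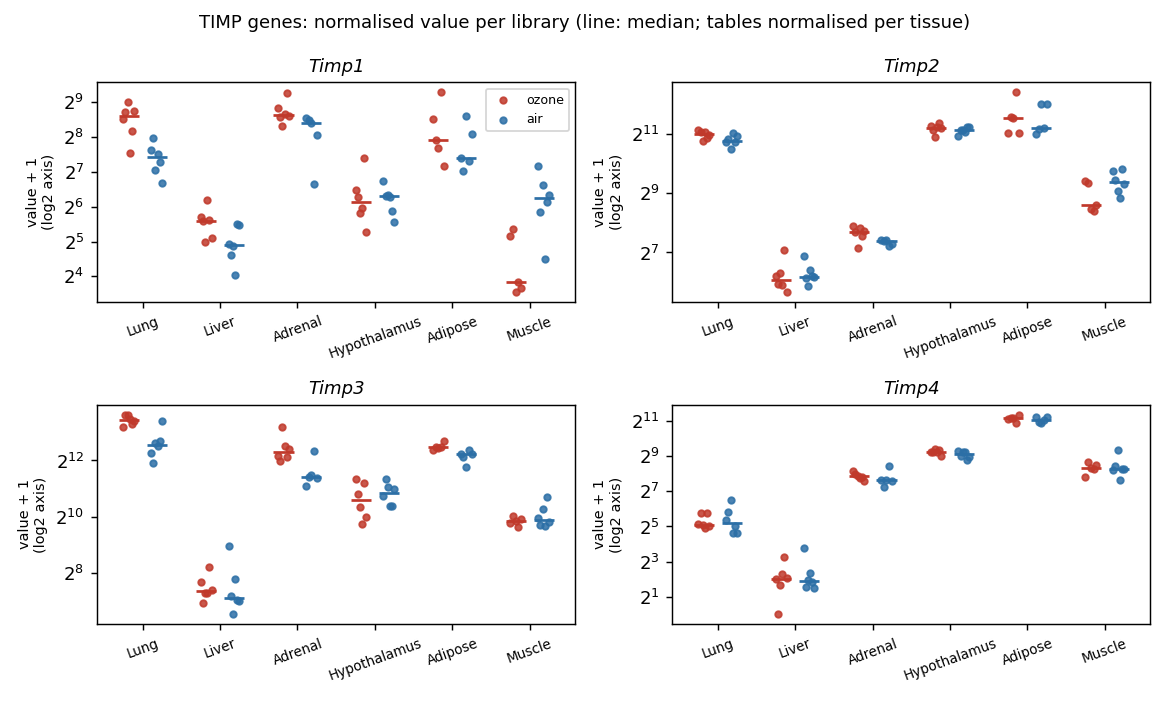
Normalised value + 1 per library on a log2 axis for the 4 TIMP genes, ozone (red) left of air (blue) in each tissue, with a line at the group median. Timp1 and Timp3 sit higher in ozone in lung, Timp1 sits lower in ozone in muscle, and Timp2 and Timp4 groups overlap in every tissue where they were tested.

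Promoters were read for the genes that moved together or in opposite directions, to show the letters beside the values. RefSeq gives at least 1 window for 33 of the 44 genes, each from 250 bases before to 50 after an annotated start on the GRCr8 assembly. Adamts1 and Adamtsl2 both rose in lung, liver, adrenal gland and adipose tissue, Adamts4 rose in lung and adrenal gland, and Mmp15 fell where Adamts1 and Adamtsl2 rose in liver, adrenal gland and adipose tissue. Each sequence runs from 5′ to 3′ on the gene's strand, and capitals mark the AP-1 motif (TGAGTCA or TGACTCA), the TATA box (TATAAA or TTTATA) and the GC box (GGGCGG or CCGCCC), searched on both strands.
Adamts1, chr11:38427335-38427634, minus strand: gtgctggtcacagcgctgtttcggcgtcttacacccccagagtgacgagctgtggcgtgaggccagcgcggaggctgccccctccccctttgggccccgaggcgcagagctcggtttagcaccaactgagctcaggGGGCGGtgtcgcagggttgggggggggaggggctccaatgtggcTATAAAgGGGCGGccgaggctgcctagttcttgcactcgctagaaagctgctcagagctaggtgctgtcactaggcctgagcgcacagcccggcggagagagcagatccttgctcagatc
Adamtsl2, chr3:30802450-30802749, plus strand: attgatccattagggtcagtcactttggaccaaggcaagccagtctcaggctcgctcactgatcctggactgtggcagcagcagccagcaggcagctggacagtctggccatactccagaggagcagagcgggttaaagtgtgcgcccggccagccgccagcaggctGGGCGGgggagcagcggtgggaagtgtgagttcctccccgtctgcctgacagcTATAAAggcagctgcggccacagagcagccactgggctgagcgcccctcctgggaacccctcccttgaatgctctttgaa
Adamts4, chr13:86202761-86203060, plus strand: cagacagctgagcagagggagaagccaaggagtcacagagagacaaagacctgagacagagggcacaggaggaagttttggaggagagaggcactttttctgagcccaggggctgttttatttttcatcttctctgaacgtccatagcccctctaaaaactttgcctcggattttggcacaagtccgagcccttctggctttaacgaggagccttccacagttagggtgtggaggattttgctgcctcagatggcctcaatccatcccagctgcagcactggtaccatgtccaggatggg
Mmp15, chr19:9690951-9691250, minus strand: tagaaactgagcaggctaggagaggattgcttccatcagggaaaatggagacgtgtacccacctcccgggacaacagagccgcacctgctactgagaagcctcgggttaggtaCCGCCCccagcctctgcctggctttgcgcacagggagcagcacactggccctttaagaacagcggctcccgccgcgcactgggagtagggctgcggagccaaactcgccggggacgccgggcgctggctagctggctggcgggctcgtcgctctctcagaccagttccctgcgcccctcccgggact

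Adamtsl2 held a TATA box at -30 and a GC box at -83 from the annotated start, Adamts1 a TATA box at -70 and GC boxes at -114 and -63, and Mmp15 a GC box at -137. The Adamts4 window held none of these motifs. Of the 33 family genes with a window, 10 held a TATA box and 18 a GC box in at least 1 window. Counted by window and not by gene, 14.2% and 33.1% of all 33469 windows held them. A gene with several windows has more places for a motif, so these counts and shares are not on the same scale. No family window held the cAMP response element TGACGTCA (1.83% of all windows) or the palindromic glucocorticoid response element (0.0149% of all windows), which says only that these letters are not in these windows.

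The AP-1 motif stood in windows of 4 family genes, Mmp3, Mmp7, Mmp10 and Mmp12. Counted by window and not by gene, 4.63% of all windows held it. Mmp7 and Mmp10 were under the minimum everywhere, Mmp3 was tested in muscle and Mmp12 in lung. Stretches of 100 bases are shown for the pair that was tested, with the AP-1 motif upstream of a TATA box in each.
Mmp3, chr8:12925181-12925280, plus strand: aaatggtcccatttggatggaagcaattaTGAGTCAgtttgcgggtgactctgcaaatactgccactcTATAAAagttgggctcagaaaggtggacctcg
Mmp12, chr8:12866552-12866651, plus strand: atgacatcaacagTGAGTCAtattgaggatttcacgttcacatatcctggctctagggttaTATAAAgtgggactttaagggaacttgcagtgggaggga

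Mmp3, stromelysin, was tested in muscle alone, where it averaged 6.18 ± 7.99 in ozone libraries and 13.9 ± 9.46 in air libraries (adjusted p 0.0978). Among 18 transcription factors named for MMP promoters, 7 rose and 2 fell in lung, where 9.51% of all lung genes rose and 8.18% fell. The rises included the AP-1 subunits Fosl2 (1.25, adjusted p 0.000337) and Junb (1.32, adjusted p 0.000942). Mmp12, the AP-1 motif gene tested in lung, did not pass.

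The systems that activate and restrain these proteases were also followed. Among all tested genes, 9.51% rose and 8.18% fell in lung, 9.23% and 9.38% in adrenal gland, and 21.6% and 22.1% in muscle. The shares were 6.74% and 4.72% in liver, 3.87% and 3.45% in adipose tissue, and 0.789% and 0.624% in hypothalamus. The counts of each list are to be read beside these shares. Of 10 tested genes of precursor activation and the plasminogen system, 5 rose and 0 fell in lung. Plat, tissue plasminogen activator, averaged 5262 ± 625 in lung ozone libraries and 2429.7 ± 245 in air libraries (1.11 ± 0.10, adjusted p 4.18e-06). Plaur, the urokinase receptor, averaged 152 ± 21.1 in ozone libraries and 56 ± 15.8 in air libraries (1.45 ± 0.16, adjusted p 3.23e-05), and the convertase Pcsk5 rose by 0.57 ± 0.12. In adrenal gland 2 rose and 1 fell, with Plat at 1.51 ± 0.19 (adjusted p 0.000193). In adipose tissue 2 of 9 rose, among them Pcsk5 at 1.12 ± 0.15 (adjusted p 0.00129). In liver 2 of 9 rose and 1 fell, in muscle 1 of 8 rose and 3 fell, and in hypothalamus 0 of 9 passed.

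Of 15 tested genes for other inhibitors, anchors and clearance receptors, 4 rose in lung. Tfpi2, a serine protease inhibitor that also limits matrix proteases, averaged 150.1 ± 79.5 in lung ozone libraries and 22.9 ± 7.09 in air libraries (2.51 ± 0.35, adjusted p 0.000238). Lcn2, which binds Mmp9 in a complex, rose by 0.85 ± 0.15 in lung, where Mmp9 fell. In muscle 0 rose and 10 of 13 fell, with Cd44, a docking site for Mmp9, at -1.64 ± 0.23 (adjusted p 0.000155). Adrenal gland had 2 rises, adipose tissue 1 rise and 1 fall, and liver and hypothalamus 0. Among membrane ADAM proteases, 1 of 11 tested genes fell in lung, 1 of 8 in liver, 1 of 10 in hypothalamus and 1 of 11 in adipose tissue. In adrenal gland 1 of 9 rose and 0 fell, and in muscle 1 of 11 rose and 4 fell. Adam17, the sheddase of tumour necrosis factor, fell in lung (-0.39), liver (-0.50), hypothalamus (-0.44) and muscle (-0.60).

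Matrix substrates were counted in each tissue, to be read beside the shares of all genes given above. In adrenal gland, 7 of 21 tested substrates rose and 0 fell. Acan, the aggrecan core protein that Adamts4 and Adamts1 cut, averaged 78.9 ± 49.97 in adrenal ozone libraries and 1.46 ± 0.624 in air libraries (4.86 ± 0.37, adjusted p 5.53e-06). It passed the minimum there through its ozone libraries alone. The basement-membrane collagens Col4a1 and Col4a2 rose by 0.46 ± 0.09 and 0.54 ± 0.10 there. In lung 3 of 19 rose, and in muscle 0 rose and 13 of 18 fell, with Vcan, versican, at -1.71 ± 0.26 and Dcn, decorin, at -2.22 ± 0.34. In liver 1 rose and 1 fell, and in hypothalamus and adipose tissue 0 of 22 and 0 of 20 passed. Several of these substrates are also fibroblast markers.

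In a list of inducing and repressing signals, 4 of 14 tested genes rose and 1 fell in lung, and 3 of 11 rose and 2 fell in liver. In adrenal gland 2 of 9 rose and 1 fell. In muscle 5 of 9 rose and 1 fell, where 21.6% of all muscle genes rose and 22.1% fell. In adipose tissue 3 of 12 rose and 0 fell, and in hypothalamus 1 of 9 rose and 0 fell. Fkbp5, a glucocorticoid-induced gene of that list, rose in all 6 tissues. Its fold changes were 2.94 ± 0.32 in lung, 2.86 ± 0.19 in liver, 0.60 ± 0.14 in adrenal gland, 1.90 ± 0.20 in hypothalamus, 1.81 ± 0.28 in adipose tissue and 2.75 ± 0.35 in muscle. Il1a, an inducer of MMPs, averaged 564 ± 224 in lung ozone libraries and 202 ± 33.2 in air libraries (1.38 ± 0.24, adjusted p 0.00123). Adamts1 and Mmp15 each rose in some tissues and fell in others. Whether these signals bear on the protease genes was not tested.

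The muscle falls stood beside a lower stromal signal. The 14 falls included the stromal enzymes Mmp2, Mmp14 and Adamts2 and the inhibitor Timp1, and in ozone libraries 16, 23 and 24 each of these was lower than in ozone 13 and 15. Those 3 libraries also had the lowest summed fibroblast markers, 19424 to 25396, where ozone 13 and 15 had 68097 and 78081. The muscle fibre markers Ckm and Acta1 rose, by 1.18 ± 0.26 and 0.81 ± 0.20. Of 8 endothelial markers 5 fell and 1 rose, where 22.1% of all muscle genes fell and 21.6% rose. Without ozone 16, 23 and 24, a comparison chosen after seeing the data that leaves 2 ozone libraries, 1 family gene rose and 2 fell, and the share of all muscle genes that changed was 10.7%, against 43.7% with all libraries. Mmp15 and Adamtsl3 still passed there, at 0.71 (adjusted p 0.0416) and -0.84 (adjusted p 0.0474), while Mmp2 was at -0.39 (adjusted p 0.361), Mmp14 at -0.22 (adjusted p 0.713) and Timp1 at -0.84 (adjusted p 0.323). Other genes lost the call with a fold change near that of all libraries, among them Adamts8 at -2.10 (adjusted p 0.0687), Adamtsl5 at -0.69 (adjusted p 0.124) and Adamts15 at 0.68 (adjusted p 0.119). The part of cell content in the falls was not tested.

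**Figure D4:**
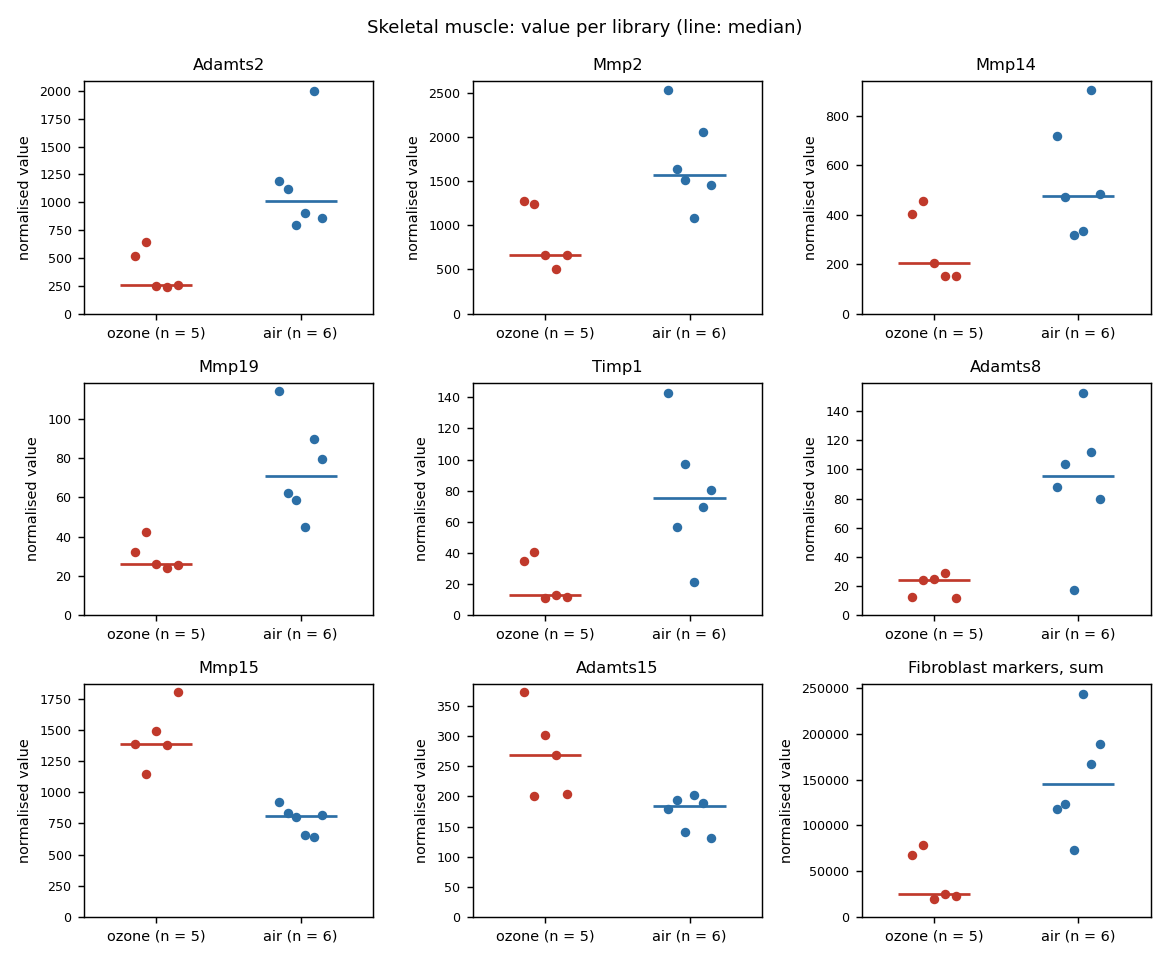
Normalised value per muscle library for 8 family genes and for the summed fibroblast markers, ozone (red, n = 5) left of air (blue, n = 6), with a line at the group median. Ozone 13 and 15, the first points of each ozone group, are higher than the other ozone libraries for Adamts2, Mmp2, Mmp14, Mmp19, Timp1 and the fibroblast sum, while Mmp15 lies above all air libraries in every ozone library.

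Whether the ozone effect differed between tissues was tested for the 20 family genes that passed the minimum in all 6 tissues, with an F test by limma over the 5 terms that let the effect vary by tissue. It differed for 15 of the 20 (75%), where it differed for 41.9% of all 11111 genes tested. Adamts4 had an adjusted p of 6.17e-12, Adamts1 of 1.08e-09, Mmp15 of 3.37e-09 and Adamtsl2 of 1.43e-07. Timp1 had 0.000125 and Timp3 0.0209. The effect was not shown to differ for Adamts15 (adjusted p 0.138), whose fold changes lay between -0.29 in hypothalamus and 0.97 in adipose tissue, nor for Adamtsl4, Mmp24, Timp2 and Adamts6. Without muscle, 8 of 21 family genes differed, where 23.1% of all genes did.

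Levels in air libraries are given in RPM, recovered reads scaled to equal library totals, and are compared along a gene, since gene lengths differ and each tissue's table was normalised apart. Of the 41 genes tested somewhere, 14 were highest in lung, 12 in adipose tissue, 5 in muscle, 4 in hypothalamus, 3 in liver and 3 in adrenal gland. For 7 of the lung genes and 8 of the adipose genes, every library of that tissue lay above every library of the next tissue. Neither count was made over all genes, so they do not show whether the family differs from other genes in this.

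Mmp2 averaged 405 ± 53.6 RPM in adipose air libraries, against 229.8 ± 31.6 in lung, and Adamts5 averaged 114 ± 26.7, against 8.43 ± 3.58 in muscle, the next tissue (SD, n = 5 or 6). Adamts2 was highest in lung, at 172 ± 40.9, within the spread of the 145 ± 38.9 in adipose tissue. Lung was highest for the leukocyte enzymes, each apart from liver, the next tissue. Mmp8 averaged 3.72 ± 1.36 RPM in lung, Mmp9 3.08 ± 0.541 and Mmp12 2.34 ± 1.58, against 0.12, 0.36 and 0.21 in liver. Lung was also highest for Mmp15, at 206 ± 45.2, and Adamts8, at 34.2 ± 9.92, each apart from the next tissue. Adamts13, the von Willebrand factor protease that liver stellate cells make, averaged 10.1 ± 2.56 in liver, against 1.21 ± 0.368 in lung.

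Hypothalamus led for Adamts4, at 33.3 ± 5.57 RPM, against 17.5 ± 2.93 in adipose tissue, and for Mmp24, a membrane-type enzyme of neurons, at 41.2 ± 4.15. Timp4 averaged 147 ± 18.2 in adipose tissue, against 46.5 ± 5.86 in hypothalamus, while the order of adipose tissue and hypothalamus for Timp2, 201 ± 76.6 and 189 ± 17.8, lay within their spread.

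**Figure D5:**
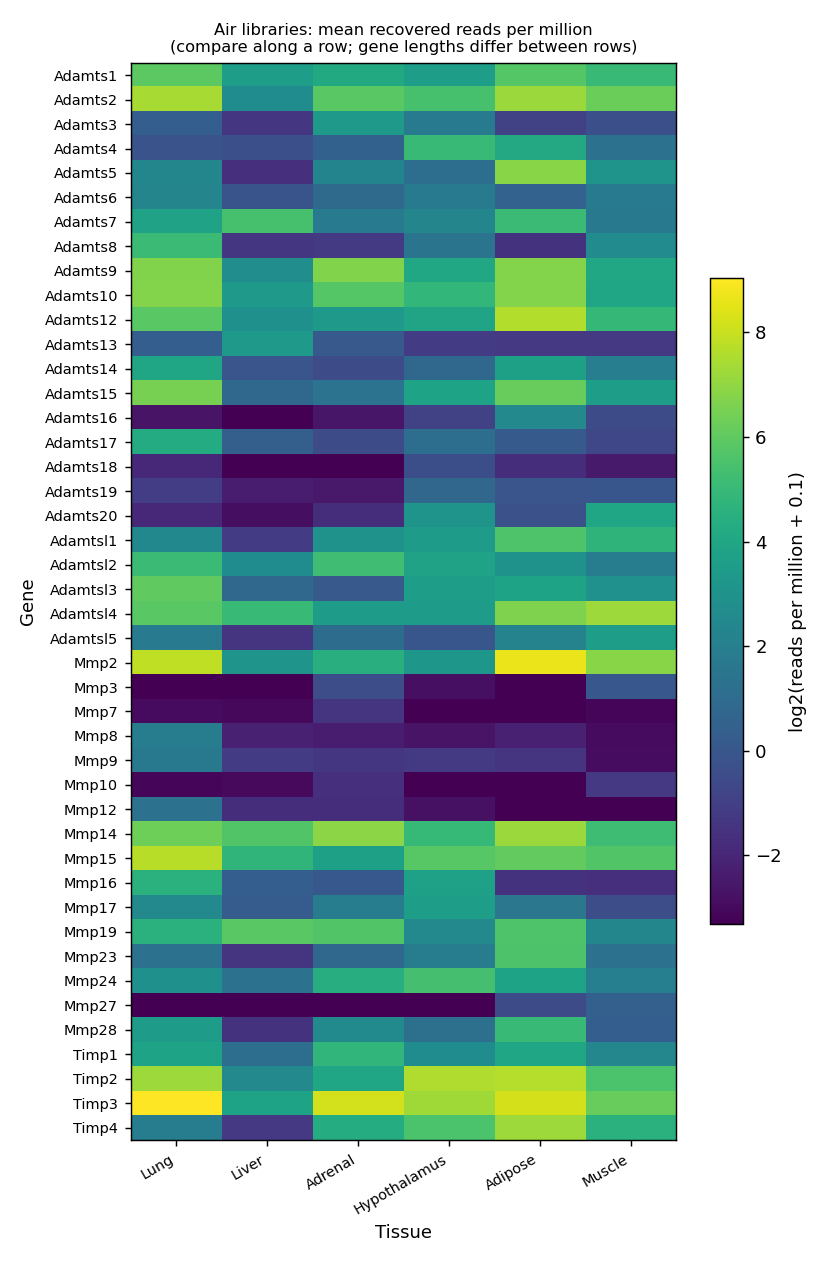
Mean RPM in air libraries, as log2(RPM + 0.1), for the 44 family genes (rows) in the 6 tissues (columns), to be compared along a row. Adipose tissue and lung are bright for most rows, with Mmp2 at 405 RPM in adipose tissue, and liver is dark for most rows.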

How the data were processed

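Messenger RNA of 6 tissues was sequenced on an Illumina NextSeq 500 after mRNA selection, per the labels' protocols. The deposited values are signal values, gene counts divided by the authors by 1 size factor per library, a form worked out from the values, since dividing by the smallest step left whole reads (tolerance 0.01) in 100% of nonzero entries. Partek, DESeq2 and rn6 appear in the submitters' processing notes. How reads were aligned, counted and assigned to a strand, and by which annotation, is not given in the sources used here. Of 70 labelled libraries, 68 had a column, so muscle ozone 17 and adrenal air 7 stayed out. Of 19465 gene entries, 24 whose names were dates were left out.

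Each tissue was fitted with limma 3.58.1 (R 4.3.3) on log2(value + 1), with trend and robust moderation, over genes of mean value at least 10, without covariates. Ozone effects were compared between tissues with 1 joint fit. The fit was tested on simulated data. The alternatives were edgeR 4.0.16 and DESeq2 1.42.0 on the recovered reads, TMM scaling, array weights, pseudocounts of 0.5 and 5, other minimum means and leaving out each library. No pair of libraries in a group agreed within counting noise. Family genes past the threshold were named in each tissue, up to the 14 of lowest adjusted p. Library values were given for up to 4 of them and for genes changed in at least 3 tissues, and TIMPs, Mmp2, Mmp9, Mmp14, Adamts1, Adamts4 and Adamts9 were named wherever tested. The genes and lists were chosen with earlier results of these data known.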

Additional observations from a re-analysis of the deposited data

Results flagged for a closer look

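The ozone effect differed between tissues for 15 family genes (limma F test over 6 tissues, adjusted p over all genes tested). The adjusted p was 6.17e-12 for Adamts4, 1.08e-09 for Adamts1, 3.37e-09 for Mmp15, 1.43e-07 for Adamtsl2, 0.000125 for Timp1, 0.000143 for Adamts9, 0.000374 for Adamts2 and 0.00108 for Mmp2. It was 0.00201 for Mmp19, 0.00647 for Adamts12, 0.00717 for Adamts7, 0.0136 for Adamtsl3, 0.0151 for Adamts10, 0.0199 for Mmp14 and 0.0209 for Timp3.

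Single libraries stood apart from the rest of their group by Dixon's test in 8 of 82 groups, where chance gives about 1 in 20. In liver, ozone 19 had an Adamts15 value of 79.0, against 29.4 in the next ozone library, and air 1 had 63.1, against 24.7 in the next air library. Both libraries also held lung markers, whose part was not tested. Liver air 9 had an Adamtsl2 value of 124, against 86.7 in the next, and liver air 6 an Adamts10 value of 188, against 146 in the next. Lung ozone 14 was lowest for Adamts10 at 653, against 839 in the next, and lung air 9 was lowest for Adamts4 at 2.77, against 9.80 in the next. Hypothalamus air 7 had an Adamts1 value of 226, against 145 in the next, and muscle air 7 an Adamts2 value of 2001, against 1189 in the next.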

How the results depend on the processing

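Of the 48 changes, 47 also passed with edgeR, 47 with DESeq2 and 48 with array weights, and 33 passed in every fit that left out 1 library. Leaving out 1 library gave 12 to 14 changed family genes in lung, 1 to 4 in liver (1 without air 2), 11 to 20 in muscle, 5 to 13 in adrenal gland (5 without air 2), 3 to 4 in fat and 1 in hypothalamus. In these fits, 13.3% to 22.5% of all genes changed in lung, 8.46% to 13.7% in liver and 36.4% to 44.0% in muscle. The share was 14.0% to 25.1% in adrenal gland, 4.29% to 8.58% in fat and 0.71% to 1.91% in hypothalamus. Liver had 2 with no minimum mean, where 7.04% of all genes changed (11.5% with the minimum), and adrenal gland had 17 with array weights, where 34.4% did (18.6% without). In fits chosen after seeing the data, which left out libraries with extreme marker sums, liver had 2, adrenal gland 6, hypothalamus 0, adipose tissue 5 and muscle 3, where 12.1%, 9.95%, 0.526%, 7.80% and 10.7% of all genes changed, and in muscle Mmp27 had a fold change of 0.0108 (log2), against -1.87 with all libraries. Without muscle, 8 of 21 family genes had effects that differed between tissues, where 23.1% of all genes did (41.9% with muscle), and the cause was not tested. No paired analysis was possible because ozone and air libraries of a tissue share no numbers. With equal numbers across tissues as a replicate block, 15 family genes differed between tissues, and these were the same 15. Same-number pairs had a median correlation of 0.0103 and different-number pairs 0.00248, so the numbers were not shown to mark a rat. Low genes such as Mmp8 and Mmp12 rest on few reads, which limits what could be detected.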
